A study of Mus musculus with 8 samples.

Results

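The skeletal muscle programme comprised 35 genes known from skeletal muscle, some of which, such as Ckm and Tnni1, are also used in the heart. The data show where CHD4 was called at these genes in TBX5 KO and control mouse atria. The genes were chosen from knowledge of muscle biology and not by a measured value, though earlier results of these data were known. Peaks of the 4 deposited lists that shared 1 bp or more formed a site, and a site belonged to a gene if it overlapped the gene body or 10 kb on either side. This gave 149 sites at the 35 genes, of 96605 sites at 21887 protein-coding genes and 121267 sites in all. A site between Myh1 and Myh4 belonged to both genes and was counted once.

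CHD4 is the motor subunit of NuRD, a complex that moves nucleosomes and removes histone acetylation. TBX5 is a T-box factor on which atrial gene expression depends. Mice in both groups carried floxed Tbx5 alleles (TBX5 flox/flox) and were injected on postnatal day 2 with an AAV9 vector. The TBX5 KO group received AAV9:Nppa-Cre and the control group AAV9:Nppa-EGFP. Cre recombinase excises floxed DNA and EGFP is a fluorescent protein. Both vectors are named for Nppa, a gene of atrial cardiomyocytes, so the deletion is aimed at those cells and not at the other cells of the atria. CHD4 was assayed by ChIP-seq in right and left atria of mixed cell type, with 2 TBX5 KO and 2 control libraries. Titles gave the groups. The labels for genotype and treatment state the opposite for each library, and the treatment text names CHD4 where the design names TBX5, so a higher or lower value below is as the titles have it. The labels do not say whether a replicate is an animal or a pool, so errors describe the spread between these libraries, which may be technical. Age at dissection is not given in the labels used here.

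In skeletal muscle, the basic helix-loop-helix factors of the MyoD family bind E-box DNA and switch on genes for contraction, excitation and the nerve contact, and myoblasts fuse into fibres. Cardiac muscle uses paralogous genes for many of the same proteins. CHD4 has been studied in the heart as a repressor of skeletal muscle genes, and the question here is which of these genes hold CHD4 in atria and which calls remain in TBX5 KO atria. A CHD4 peak does not measure expression, so no value below says whether a gene is active. It also cannot check the tissue: all 5 atrial cardiomyocyte markers tried had a site in both control libraries, and so had all 4 fibroblast, all 4 endothelial and all 4 smooth muscle markers.

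The TBX5 KO lists held 61173 and 69557 peaks and the control lists 99924 and 91520. From the fold and the p-value of each peak, its pileup, the number of DNA fragments over the summit, came out as a whole number, to within 0.02, for 99.953% of peaks in control 1 and for a higher share in the other lists. The genome background, the coverage expected from depth alone, was 10.7 and 13.4 fragments in TBX5 KO 1 and 2, and 10.1 and 10.3 in control 1 and 2. The lowest pileup of a called peak was 22 and 26 fragments in the TBX5 KO lists, and 21 in each control list. Fragment numbers below are not scaled to the background, which was highest in TBX5 KO 2, while every ratio is of pileups over background. A site that is not called may still be occupied below these limits.

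The promoters of 6 of the genes lay under a site called in both control libraries, and these are shown because a called site covers the start of the gene there. The sites can reach other genes: that over Chrnb1 lay at an end of Fgf11, that over Mybpc2 at an end of Spib, and that over Tnnt1, merged over 10748 bp, reached Tnni3 and had its summit 5849 bp from the Tnnt1 start. Each sequence is the RefSeq window (GRCm38.p6, the assembly behind mm10) of 250 bases before to 50 after the start, 5′ to 3′ on the gene's strand, and capitals mark E-boxes (CANNTG). They are given in the order of the control rank of the whole site, which need not be the strength at the promoter. All 6 sites were called in all 4 libraries.
Chrnb1: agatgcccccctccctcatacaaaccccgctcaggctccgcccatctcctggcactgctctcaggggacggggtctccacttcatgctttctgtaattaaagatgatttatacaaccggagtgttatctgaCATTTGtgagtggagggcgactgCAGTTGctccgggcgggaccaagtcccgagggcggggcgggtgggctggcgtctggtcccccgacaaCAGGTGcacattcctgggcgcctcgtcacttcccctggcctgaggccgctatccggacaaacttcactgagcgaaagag
Casq1: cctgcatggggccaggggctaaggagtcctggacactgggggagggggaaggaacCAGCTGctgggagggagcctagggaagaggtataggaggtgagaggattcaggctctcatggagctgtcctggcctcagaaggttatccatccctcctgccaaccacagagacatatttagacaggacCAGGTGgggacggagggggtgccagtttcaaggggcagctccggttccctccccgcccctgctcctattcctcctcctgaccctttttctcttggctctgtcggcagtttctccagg
Tnnt1: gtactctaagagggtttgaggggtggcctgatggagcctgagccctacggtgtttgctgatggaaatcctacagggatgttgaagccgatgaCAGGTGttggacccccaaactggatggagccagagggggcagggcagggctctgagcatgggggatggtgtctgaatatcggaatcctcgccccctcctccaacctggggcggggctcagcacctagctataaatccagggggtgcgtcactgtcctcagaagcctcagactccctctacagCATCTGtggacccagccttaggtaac
Ckm: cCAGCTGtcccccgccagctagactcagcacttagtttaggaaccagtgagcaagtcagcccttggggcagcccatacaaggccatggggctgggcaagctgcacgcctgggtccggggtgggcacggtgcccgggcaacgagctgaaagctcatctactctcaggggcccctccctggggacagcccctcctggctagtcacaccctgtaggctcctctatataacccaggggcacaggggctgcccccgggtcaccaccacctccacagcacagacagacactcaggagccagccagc
Mybpc2: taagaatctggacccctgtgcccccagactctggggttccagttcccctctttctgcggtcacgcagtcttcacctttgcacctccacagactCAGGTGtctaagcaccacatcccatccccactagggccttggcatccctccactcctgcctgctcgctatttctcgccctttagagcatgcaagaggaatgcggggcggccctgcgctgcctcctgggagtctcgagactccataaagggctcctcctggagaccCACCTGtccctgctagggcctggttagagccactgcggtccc
Musk: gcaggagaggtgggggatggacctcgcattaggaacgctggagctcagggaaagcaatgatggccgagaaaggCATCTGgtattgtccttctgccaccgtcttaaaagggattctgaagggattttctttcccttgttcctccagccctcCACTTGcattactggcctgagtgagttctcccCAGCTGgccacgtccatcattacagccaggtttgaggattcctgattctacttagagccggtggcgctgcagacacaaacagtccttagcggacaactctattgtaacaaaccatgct

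The Chrnb1 window lies at chr11:69795888-69796187 (minus strand) and the Casq1 window at chr1:172219846-172220145 (minus strand). The Tnnt1 window is chr7:4515926-4516225 (minus strand) and the Ckm window chr7:19410844-19411143 (plus strand). Those of Mybpc2 and Musk are chr7:44524620-44524919 (minus strand) and chr4:58285712-58286011 (plus strand). All 6 windows held at least 1 E-box, as did 72.3% of the 32851 promoter windows of the table, so an E-box is common in windows of this length. A T-box core (GGTGTG, on either strand) was found in 1 of the 6 windows, that of Ckm, and in 19% of all windows. A GATA motif (AGATAA, on either strand) was found in that of Chrnb1 alone, and in 11.2% of all windows. The CArG box and the MEF2 site were in 0 of the 6, and in 1.63% and 3.19% of all windows. Of the 25 genes with a promoter in the table, 6 had the window under such a site (24%), against 45.5% of the 27025 genes of the table.

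CHD4 was called at most of the skeletal muscle genes in control atria. A site called in both control libraries lay within 10 kb of 28 of the 35 genes (80.0%), against 70.3% of all protein-coding genes. For 23 genes at least 1 such site was also called in both TBX5 KO libraries (background 65.7%). The other 5, Myf6, Neb, Myh1, Myh4 and Myl1, had a site in both control libraries and none in all 4, a pattern found in 4.65% of all genes. Only at Myf6 was every site of both control libraries absent from both TBX5 KO lists (background 2.01%). Of the other 7 genes, Myod1, Myf5, Acta1, Myh3 and Myh8 had no site in any list (background 26.0%), and Myh2 and Pvalb had sites in single libraries only. The median gene length was 16.7 kb, against 17.2 kb over all genes. In the gene body alone, 20 of the 35 genes (57.1%) had a site in both control libraries, against 64.2% of all genes, and 15 had one within 1 kb of an own end (42.9%), against 58.5% of all genes.

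**Figure D1:**
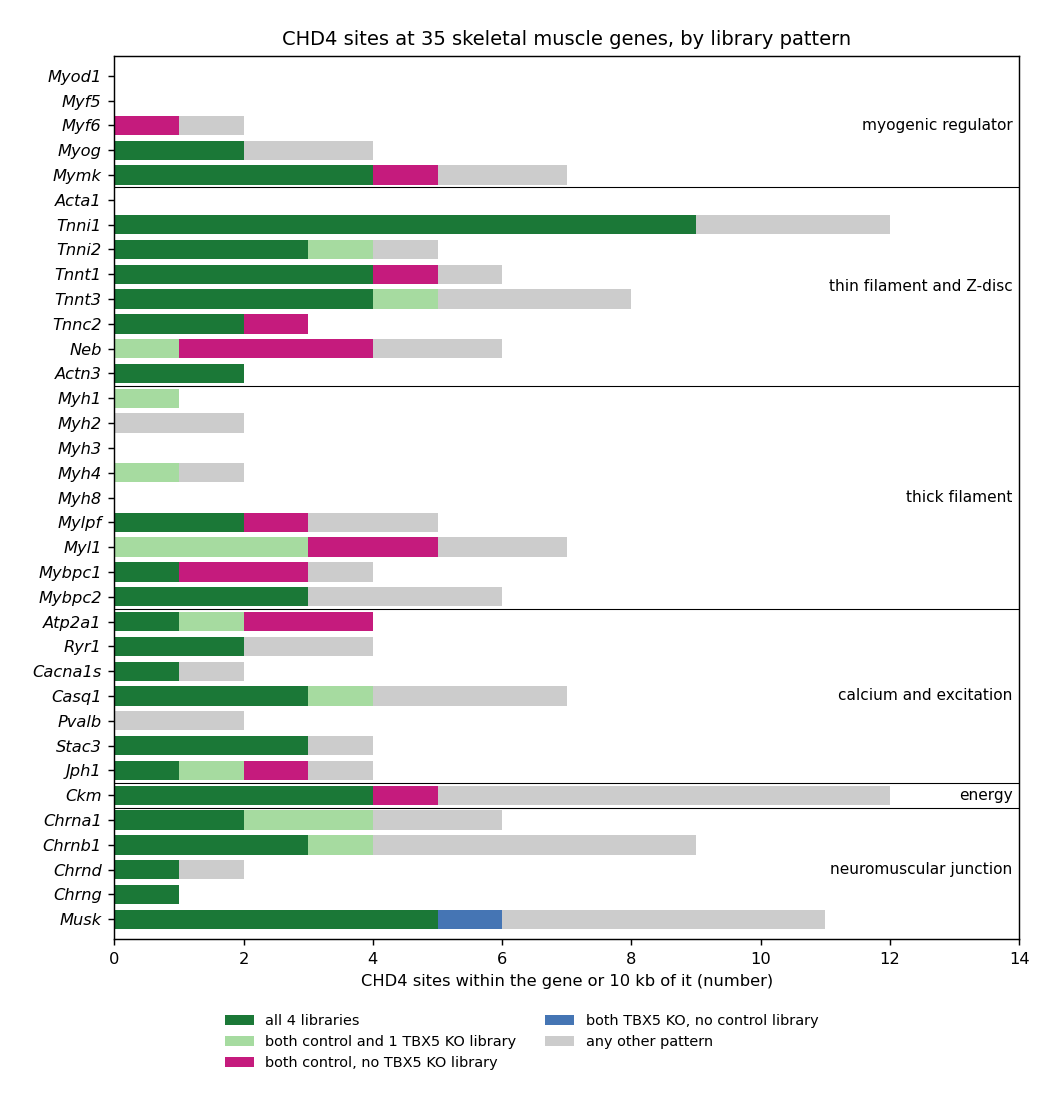
Number of CHD4 sites (horizontal axis) in the body or within 10 kb of each of the 35 genes, grouped by role, with colours for the libraries in which the site was called. Tnni1 has 9 sites called in all 4 libraries, Neb and Myl1 have none, and 5 genes have no site at all.

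Fewer of these sites were called in the TBX5 KO libraries. Of the 149 sites, 75 and 83 were called in TBX5 KO 1 and 2, a mean of 79.0 ± 5.66 (SD, n = 2), and 122 and 110 in control 1 and 2, a mean of 116.0 ± 8.49 (SD, n = 2). The groups did not overlap; TBX5 KO over control was 0.681, beside 0.622 over all gene sites. By an exact two-sided permutation test p was 0.333, and 2 libraries against 2 allow none smaller. When every list was cut to the 61173 peaks of the shortest, the TBX5 KO libraries had 75 and 77 of the sites and the control libraries 84 and 78, so the difference of means was then -5.0 in place of -37.0.

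Most of the sites seen in control atria remained called. Both control libraries shared 92 sites, of which 63 (68.5%, 95% Wilson interval 58.4% to 77.1%) were called in all 4 libraries, 13 in 1 TBX5 KO library and 16 (17.4%, 11% to 26.4%) in neither. Intervals here and below cover counting error only. For all genes together the shares were 57.2% called in all 4, 18.5% in 1 TBX5 KO library and 24.3% in neither. The last class is called control-only below. The control-only share was 27.2% without TBX5 KO replicate 2, 30% without control replicate 1 and 37.3% without control replicate 2, where the share over all gene sites was 36.8%, 36.9% and 40.9%. With lists of equal length it was 8.22%, beside 13.5% over all gene sites. The opposite pattern, TBX5 KO-only, was seen at 1 site, or 1.52% of the 66 that both TBX5 KO libraries held (background 1.74%). Since the genes were chosen with earlier results of these data known, no test was made of the list against other genes.

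Control-only shares are given next by the place and the strength of the site. Within 1 kb of an end of any protein-coding gene, 3 of 40 sites (7.5%) were control-only at skeletal muscle genes, against 7.22% of all gene sites there. Away from gene ends 13 of 52 (25%, Wilson 15.2% to 38.2%) were control-only, against 30.1%. The list held more gene-end sites, 43.5% of its sites in both control libraries, against 25.6% over all genes, and its sites were stronger, with a median control rank at the percentile 68.6 against 62.0. Rank here is the mean percentile of −log10 p in the control lists. Of the 23 sites with a rank under 50, 12 were control-only (52.2%, against 49.7% over all genes), and of the 69 with a higher rank 4 were (5.8%, against 9.67%). Among the 34 sites at a gene end with a rank of 50 or more, 0 were control-only, against 1.78% over all genes, and among the 35 such sites away from gene ends 11.4% were, against 13.8%.

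**Figure D2:**
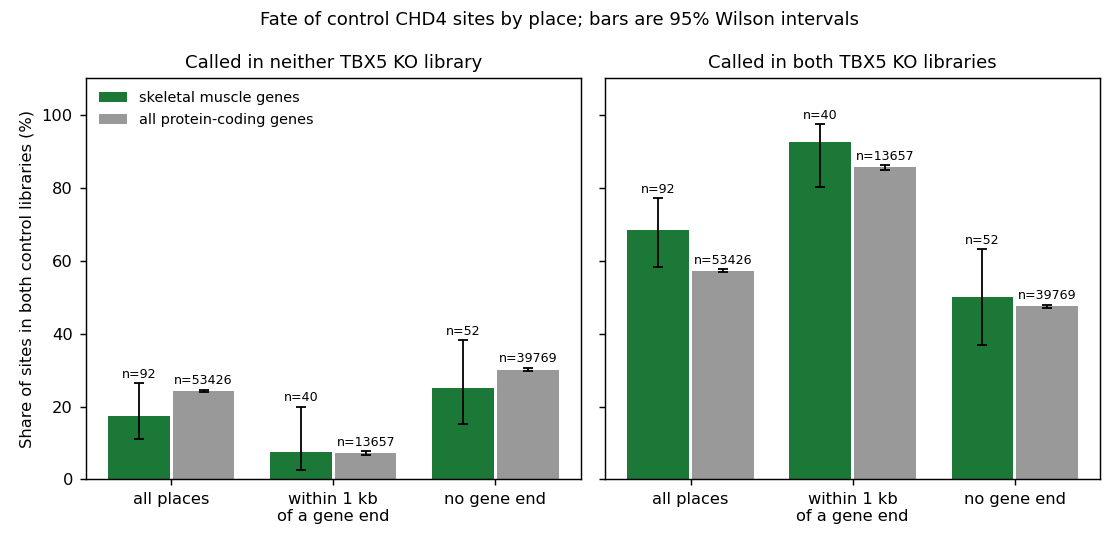
Share (%) of the sites called in both control libraries that were called in neither TBX5 KO library (left) or in both (right), at the 35 skeletal muscle genes and at all protein-coding genes, with 95% Wilson intervals and the number of sites. Away from gene ends 25% of the sites at skeletal muscle genes were called in neither, against 30.1% at all genes.

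Many of the gene-end sites lay at neighbours of the skeletal muscle genes. Among these 92 sites 30 had a gene outside the list ending or starting within 1 kb, and 28 of those 30 (93.3%) were called in all 4 libraries. Over all gene sites within 1 kb of a gene end the share was 85.6%, so most such sites remained called anywhere. Inside a skeletal muscle gene and away from its ends lay 26 sites, all of which overlapped no other gene. Of these, 7 were called in all 4, 10 in 1 TBX5 KO library and 9 (34.6%, Wilson 19.4% to 53.8%) in neither. Myl1 held 5 of the 26, with 0 called in all 4 and 2 control-only, and Neb held 4, with 0 and 3. Sites of 1 gene may not be independent, and the interval does not take this into account. Over all gene sites away from gene ends 47.5% were called in all 4 and 30.1% in neither. That set also holds sites in the 10 kb flanks, so it is not a like set for the 26. The like shares at skeletal muscle genes, flanks included, were 50% and 25% of 52 sites. The 10 sites at an own end that overlapped no other gene were called in all 4 in 9 cases (90%), beside the 85.6% of all gene-end sites. The strongest site of the list, at Mylpf, lay at an end of Tbc1d10b, and strong sites at Tnnc2, Chrng and Actn3 lay at ends of Snx21, Eif4e2 and Zdhhc24. A peak cannot say which of 2 adjacent genes it belongs to.

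Among the myogenic regulators, CHD4 was absent from the lists at Myod1 and Myf5, which encode the factors that commit cells to the muscle lineage. The nearest site in both control libraries was 103 kb from Myod1 and 12.7 kb from Myf5. That site near Myf5 was the control-only site of the neighbouring Myf6, which encodes a related factor of differentiated fibres (chromosome 10, 107499669 to 107500152). It had 52 and 40 fragments in control 1 and 2 and no peak in either TBX5 KO list, and lay 4946 bp from Myf6. At Myog, which encodes the factor of terminal differentiation, both sites lay downstream, inside the neighbouring gene Ppfia4, with summits 8847 and 12958 bp from the Myog start. At the farther one the control values lay above both TBX5 KO values, with 59 and 89 fragments in TBX5 KO 1 and 2, and 108 and 129 in control 1 and 2. The nearer one had 31 and 44 in the TBX5 KO and 38 and 31 in the control libraries, with a ratio of 0.912, and its groups overlapped. Mymk, which encodes the fusion protein myomaker, kept 4 of 5 sites in all 4 libraries. Its site at an own end had 37 and 54 fragments in TBX5 KO and 68 and 54 in control libraries. Over background that was 3.46 and 4.03 in TBX5 KO, and 6.72 and 5.26 in control libraries. A control-only site of Mymk, of 27 and 29 fragments, lay 9847 bp from the gene, inside Adamtsl2.

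Thin filament genes held the most sites, 32 in both control libraries, of which 24 (75%) were called in all 4 and 5 were control-only. Tnni1, which encodes slow skeletal troponin I, the inhibitory subunit that is also made in the immature heart, had 9 of 9 sites called in all 4 libraries, the highest count of the list. Of these, 4 lay in the gene body away from its ends, and 1 at an end of Lad1. At the site with its summit 1070 bp from a RefSeq start (chromosome 1, 135799959 to 135801172) the pileup was 36 and 54 fragments in TBX5 KO 1 and 2, and 44 and 31 in control 1 and 2. Relative to the genome background, the TBX5 KO mean over the control mean was 1.0 there, the highest ratio of any site of the list called in all 4 libraries. At the strongest Tnni1 site, 849 bp outside the gene, TBX5 KO libraries had 38 and 59 fragments and control libraries 90 and 67, a ratio of 0.516. The 9 ratios thus ran between 0.516 and 1.0. Without Tnni1 the control-only share of the list was 19.3%.

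Neb, which encodes nebulin, the giant protein along the thin filament, had the opposite pattern. Its 4 sites in both control libraries all lay inside the gene, 3 were control-only and the fourth was called in TBX5 KO 2 alone. The strongest control-only site had 48 and 40 fragments in control 1 and 2 (chromosome 2, 52306497 to 52307276), and the others had 35 and 32, and 33 and 34. The site that was called had 35 fragments in TBX5 KO 2, and 38 and 36 in the control libraries. Over background that was 2.61 in TBX5 KO 2, and 3.76 and 3.5 in control 1 and 2. In control libraries these 4 sites stood at 3.11 to 4.75 times the background, and the lowest called peaks of TBX5 KO 1 and 2 stood at 2.06 and 1.94 times.

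Many sites of the other troponin genes lay at neighbours. Tnni2, for fast troponin I, had 3 of 4 sites in all 4 libraries. Of these, 1 lay at its own end and reached an end of Syt8, and the others lay at Syt8 and Lsp1. Tnnt3, for fast troponin T, had 4 of 5, among them a site merged over 25768 bp of Lsp1 that had 57 and 77 fragments in TBX5 KO and 122 and 107 in control libraries. Tnnt1, for slow troponin T, lies beside Tnni3, which encodes the cardiac troponin I, and 4 of its 5 sites were called in all 4 libraries. The promoter shown above lies under the largest of them, merged over 10748 bp, with 64 and 70 fragments in TBX5 KO and 92 and 87 in control libraries. The control-only site of Tnnt1, of 33 fragments in each control library, lay at an end of Tnni3. Tnnc2, for fast troponin C, had 2 sites in all 4 libraries and a control-only site of 29 and 28 fragments at an end of Dnttip1. Actn3, for the alpha-actinin of fast fibres, had 2 of 2 in all 4. Acta1, for skeletal actin, had no site, the nearest being 30 kb away.

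**Figure D3:**
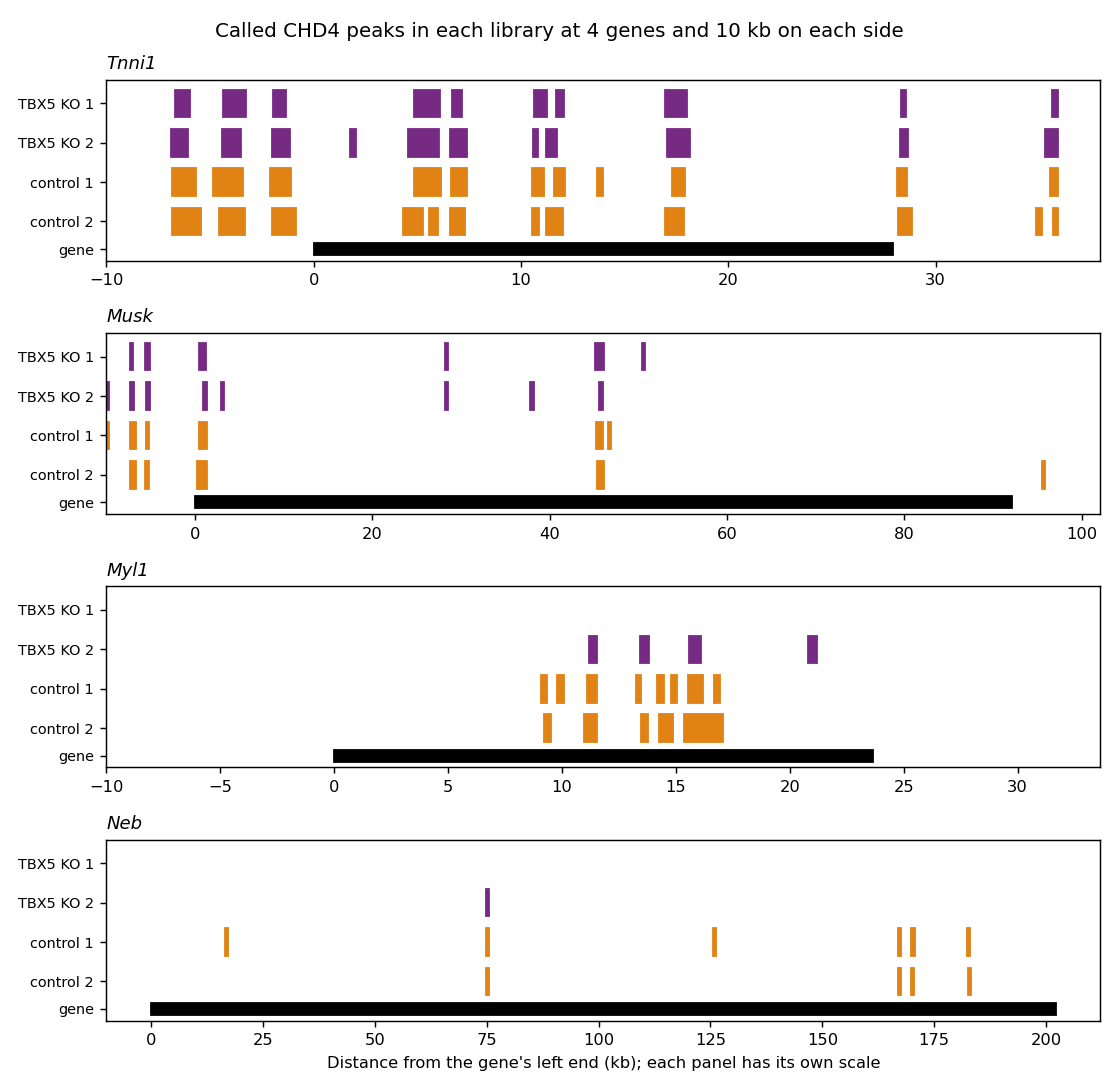
Called peaks of each library along Tnni1, Musk, Myl1 and Neb and 10 kb on either side, by distance (kb) from the left end of the gene, with the gene as a black bar. Peaks line up across all 4 libraries at Tnni1, while TBX5 KO 1 has no peak at Myl1 or Neb.

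At thick filament genes the control libraries shared 15 sites, of which 6 were called in all 4 (40%) and 5 were control-only (33.3%, Wilson 15.2% to 58.3%). Of the myosin heavy chain cluster on chromosome 11, the list has the embryonic Myh3, the perinatal Myh8 and the adult fast Myh2, Myh1 and Myh4. Together these genes held 1 site in both control libraries. It lay between Myh1 and Myh4 (67229453 to 67230408), with no peak in TBX5 KO 1, 46 fragments in TBX5 KO 2, and 41 and 34 in the control libraries. Over background TBX5 KO 2 was at 3.43, between the control values of 4.05 and 3.31. Myh13, which lies beyond Myh8 and is not on the list, had 2 sites in both control libraries, 1 of them called in all 4. Myl1, which encodes the fast essential light chains, had 5 sites in both control libraries, all inside the gene, with summits between 4800 and 11600 bp from its RefSeq start. None was called in TBX5 KO 1. TBX5 KO 2 had 3 of them with 35, 32 and 38 fragments, where control 1 had 37, 32 and 44 and control 2 had 31, 34 and 46. Over background TBX5 KO 2 stood at 2.61, 2.39 and 2.83, under both control values at each site. These were 3.66, 3.16 and 4.35 in control 1 and 3.02, 3.31 and 4.48 in control 2. The 2 control-only sites of Myl1 had 31 and 28, and 37 and 44 fragments in control 1 and 2.

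Mylpf, which encodes the fast regulatory light chain, had the strongest site of the list, with 127 and 175 fragments in TBX5 KO 1 and 2, and 283 and 308 in control 1 and 2 (chromosome 7, 127206583 to 127209866). Relative to background that was 11.9 and 13.0 in TBX5 KO, and 28 and 30 in control libraries, a ratio of 0.43. The other end of Mylpf, shared with Septin1, had a site with a ratio of 0.848. A weak control-only site of 27 and 28 fragments lay between them. Mybpc1, for slow myosin-binding protein C, had 2 control-only sites of 32 and 24, and of 25 and 38 fragments. The site 5987 bp outside the gene was called in all 4 libraries with 33 and 34 fragments in TBX5 KO and 82 and 78 in control libraries. That ratio, 0.358, was the lowest of the list. Mybpc2, for the fast form, had 3 of 3 sites in all 4 libraries, with 55 and 68 fragments in TBX5 KO and 86 and 62 in control libraries at its promoter. Over background these were 5.15 and 5.07 in TBX5 KO, and 8.5 and 6.03 in control libraries.

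Of the calcium and excitation genes, 6 of 7 held a site in both control libraries, and each of the 6 had at least 1 called in all 4. Over the group, 11 of 17 sites were called in all 4 and 3 were control-only. Casq1, which encodes the calcium-storing protein calsequestrin of the skeletal sarcoplasmic reticulum, carried strong sites at its own promoter and just inside the gene. The site over the promoter shown above had 60 and 82 fragments in TBX5 KO and 110 and 89 in control libraries. The one inside had 68 and 101 in TBX5 KO and 140 and 148 in control libraries, a ratio of 0.492. Ryr1, for the skeletal calcium release channel, had 2 sites deep in the gene, both in all 4 libraries. The stronger had 38 and 45 fragments in TBX5 KO and 54 and 46 in control libraries. Cacna1s, for the pore of the skeletal L-type channel, had 1 site, beyond the end away from its start, with 40 and 44 fragments in TBX5 KO and 37 and 41 in control libraries. Over background that was 3.74 and 3.28 in TBX5 KO and 3.66 and 3.99 in control libraries, so the groups overlapped, with a ratio of 0.918.

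Atp2a1, which encodes the calcium pump SERCA1, had 1 site in all 4 libraries, 1 that TBX5 KO 2 lacked and 2 control-only sites. The first lay at the end shared with Sh2b1 and had 27 and 41 fragments in TBX5 KO and 66 and 58 in control libraries. The control-only sites had 30 and 28 fragments at an own end, and 54 and 42 inside Rabep2. At Jph1, for a protein that ties the surface membrane to the reticulum, the site at an own end had 54 and 86 fragments in TBX5 KO and 148 and 113 in control libraries. A site in the Jph1 gene body had 24 fragments in TBX5 KO 1 and no peak in TBX5 KO 2, against 61 and 74 in the control libraries, and a control-only site had 35 and 34. All 3 sites of Stac3, for an adaptor of the L-type channel, were called in all 4 libraries, and 2 of them lay at ends of Ndufa4l2. Pvalb, for the calcium buffer parvalbumin, had no site called in more than 1 library.

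Ckm, which encodes the muscle creatine kinase that buffers ATP in skeletal and cardiac fibres, had 4 of 5 sites in all 4 libraries. The site over its promoter shown above had 31 and 38 fragments in TBX5 KO 1 and 2, and 79 and 68 in control 1 and 2 (chromosome 7, 19409494 to 19412416). The groups were well apart, with 2.9 and 2.83 times background in TBX5 KO and 7.81 and 6.62 times in control libraries, a ratio of 0.397. The other 3 sites of Ckm called in all 4 libraries had ratios between 0.743 and 0.83, and the control-only site had 32 and 24 fragments.

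Neuromuscular junction genes had 15 sites in both control libraries, of which 12 (80.0%) were called in all 4, 3 in 1 TBX5 KO library and 0 in neither (Wilson interval of the last share 0% to 20.4%). Chrna1, Chrnb1, Chrnd and Chrng encode subunits of the muscle acetylcholine receptor, Chrng that of the fetal form. The Chrnb1 promoter shown above lies under a site at the shared end with Fgf11, with 116 and 125 fragments in TBX5 KO and 187 and 176 in control libraries. Chrna1 had 2 sites outside the gene in all 4 libraries, the stronger with 50 and 64 fragments in TBX5 KO and 102 and 103 in control libraries, and 2 inside it that TBX5 KO 1 lacked. The single sites of Chrnd and Chrng lay at ends of Prss56 and Eif4e2.

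Musk, which encodes the receptor kinase that clusters these receptors, had 5 of 5 sites in all 4 libraries, with ratios between 0.631 and 0.972. The site over its promoter had 32 and 48 fragments in TBX5 KO and 31 and 38 in control libraries, which is 2.99 and 3.58 times background against 3.07 and 3.7, so the groups overlapped. Musk also held the only TBX5 KO-only site of the list (chromosome 4, 58313867 to 58314249), with 27 and 31 fragments in TBX5 KO 1 and 2 and no peak in the control lists. At −log10 q of at least 3 no site of the list was TBX5 KO-only. With summits matched within 250 bp in place of overlap, 10 were.

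The sites that remained called had lower pileups in the TBX5 KO libraries, as sites of all genes had. Over the 63 sites called in all 4, the median pileup over background was 3.93 and 3.88 in TBX5 KO 1 and 2, on average 3.9 ± 0.0367 (SD, n = 2), and 6.72 and 6.03 in control 1 and 2, on average 6.38 ± 0.487 (SD, n = 2). The groups did not overlap. TBX5 KO over control was 0.612, beside 0.626 for the gene sites of the whole genome, with p = 0.333 in the exact permutation test, again the smallest possible. The median of the ratios site by site was 0.631, between 0.358 and 1.0, beside 0.643 over all gene sites. At 55 of the 63 sites both TBX5 KO values were under both control values, a share close to the 88.6% of all gene sites, and at 0 were both above (background 0.579%). The recovered pileup is that of the summit in each library, so it applies to called peaks only and the summits can differ in position.

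**Figure D4:**
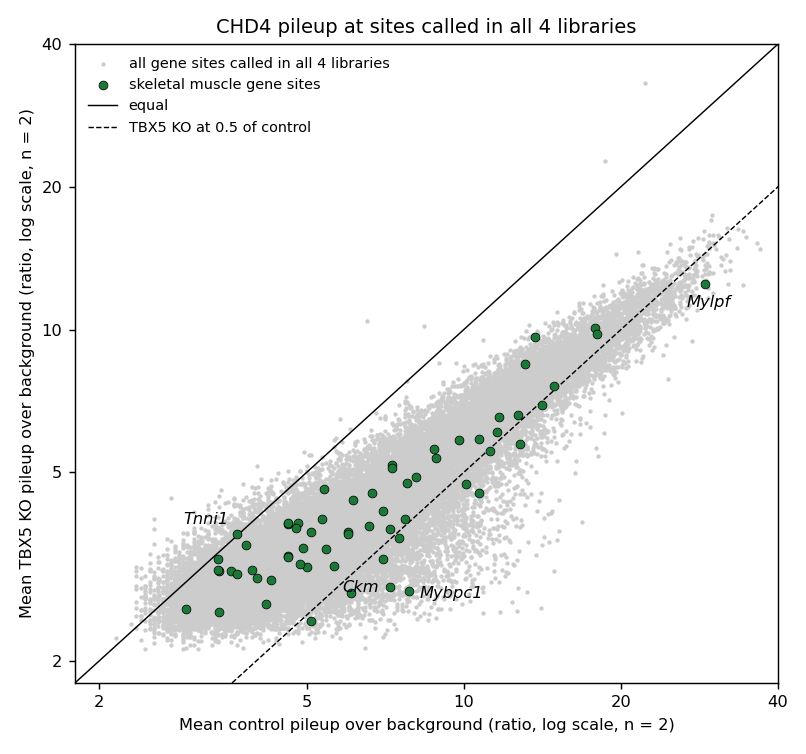
Mean pileup over background in TBX5 KO (vertical) and control (horizontal) libraries, on log axes, at sites called in all 4 libraries (n = 2 libraries for each mean). The 63 sites at skeletal muscle genes (green) lie among those of all genes (grey), with Mybpc1 and Ckm lowest relative to control and a Tnni1 site on the line of equal values.

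The control-only sites were weak in control atria as well. The 16 sites had between 24 and 54 fragments in the control libraries, 2.34 to 5.34 times the background. A control rank under 50 was found for 12 of them (75%), beside 74.7% of the control-only sites of all genes. The strongest were those of Myf6 (rank 64.2), Atp2a1 (63.7), Neb (62.0) and Myl1 (56.2). Of the 149 sites, 49 were called in a single library, beside 36075 of the 96605 sites at all protein-coding genes. Of the 49, 41 were in a control library, whose lists were longer.

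Cardiac paralogues of the same protein families gave a different count. Over 19 cardiac counterparts, 142 of 267 sites in both control libraries were control-only (53.2%, Wilson 47.2% to 59.1%) and 80 were called in all 4. Ryr2, for the cardiac calcium release channel, accounts for 68 of the control-only sites, and without it the share was 74 of 190 (38.9%). Cacna1c accounts for 28 more and Actn2 for 11. At the skeletal muscle genes 43.5% of the sites lay near gene ends, against 13.5% at the cardiac genes, and away from gene ends the control-only share was 25% against 59.7%, or 45.2% without Ryr2. Control-only sites at Ryr2, Cacna1c and Actn2 were known from earlier results of these data, so these counts are a description, and the difference between the lists was not tested. The lists share 4 sites, at Tnnt1 and Tnni3.

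Over the 19 pairs in which the skeletal muscle gene had a site in both control libraries, the share kept in all 4 was higher at the skeletal muscle gene in 8, higher at the cardiac gene in 10 and equal in 1. The pairs are not independent. Myh1 and Myh4, in 2 of the 10, hold the same 1 site, and Tnni3, Tnnt2, Myh6 and Mybpc3 each stand in 2 pairs. Ryr1 kept 2 of 2 sites in all 4 libraries and Ryr2 4 of 77. Cacna1s kept 1 of 1 and Cacna1c, for the cardiac L-type channel, 22 of 64. Casq1 kept 3 of 4 and Casq2, for cardiac calsequestrin, 3 of 9. Actn3 kept 2 of 2 and Actn2, for the alpha-actinin of cardiac Z-discs, 4 of 26. Neb and Nebl, for the cardiac relative nebulette, kept 0 of 4 and 0 of 6, Jph1 and Jph2 kept 1 of 3 and 11 of 21, and Tnnc2 and Tnnc1, for fast and cardiac troponin C, kept 2 of 3 and 5 of 6. Of Mybpc1 and Mybpc3, for slow skeletal and cardiac myosin-binding protein C, 1 of 3 and 4 of 5 sites were kept. Myl1 kept 0 of 5 and Myl3, for a cardiac essential light chain, 2 of 2, and Atp2a1 kept 1 of 4 and Atp2a2, for the cardiac calcium pump, 2 of 4. Paralogues differ in length, from 2.15 kb for Myl7 to 610 kb for Cacna1c.

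**Figure D5:**
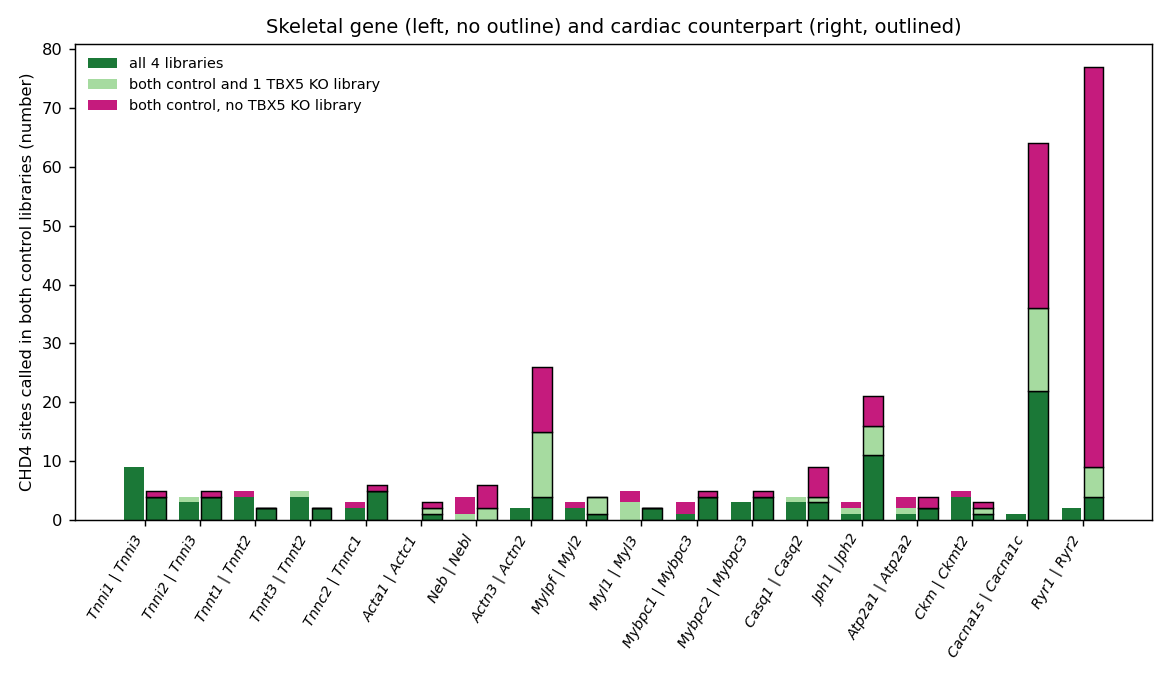
Number of sites called in both control libraries at each skeletal muscle gene (left bar of a pair) and its cardiac counterpart (right bar, outlined), coloured by their calls in the TBX5 KO libraries. Ryr2, with 68 of 77 sites called in neither TBX5 KO library, stands beside Ryr1, with 2 sites called in all 4.

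Pooled over their sites, other skeletal muscle genes lay close to the background. A second list of 40 genes, with upstream factors such as Pax3 and Pax7, nerve contact genes, metabolic genes and sarcomere genes, had 33 genes with a site in both control libraries. Of their 149 sites, 89 (59.7%) were called in all 4 and 37 (24.8%, Wilson 18.6% to 32.3%) were control-only, beside 57.2% and 24.3% over all gene sites. Pax3 and Pax7, for the factors of muscle progenitors, had no site, as Myod1 and Myf5 had none. Srl, for the reticulum protein sarcalumenin, had 11 sites, of which 7 were called in all 4 libraries and 1 was control-only. Mylk4, a myosin light chain kinase gene, had 10, with 5 and 3. Smyd1, for a methyltransferase of muscle cells, had 9, with 1 and 5. Mylk2, for the skeletal myosin light chain kinase, and Trim63, for a muscle ubiquitin ligase, tied with 8 sites each. All 8 of Mylk2 were called in all 4 libraries, and 2 of those of Trim63, where 5 were control-only.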

How the data were processed

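The data are 4 narrowPeak lists on mm10, 1 for each CHD4 ChIP library, called separately and not pooled. The 4 input libraries were not analysed on their own. MACS2 and DiffBind are named, with no version, in the submitters' processing notes, and per the series design text the authors used both ChIP and input reads. No source used here gives the aligner, the filters on reads or the settings of the calls. The deposited fold is the ratio of a peak's pileup to its local background, and its −log10 p and −log10 q, also deposited, come from the same caller (lowest −log10 q 1.3 to 1.31). The deposited score is a rounded multiple of −log10 q and was not used. The −log10 p ranked peaks within a list.

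Sites, regions and patterns were computed with Python 3.11.15, pandas 2.3.3 and scipy 1.17.1. Gene positions and promoters came from RefSeq tables of GRCm38.p6, in which all 35 genes were found and 25 had a promoter. Pileup and local background were solved from fold and −log10 p, taking fold as (pileup + 1)/(background + 1) and a Poisson p, and the genome background was the 5th percentile of the local ones. Read totals are not in the lists. Merging and recovery were tested on simulated data. Named were all 35 genes, in detail those with a site in both control libraries, and of the other skeletal muscle genes those with the most such sites. Cardiac counterparts were named by counts. The members, lists and tests were chosen with earlier results of these data known. Marker lists were made for atrial cardiomyocytes, fibroblasts, endothelium and smooth muscle. The alternatives changed the q threshold, list length, overlap, gene region, assignment, libraries and group labels. Those for the cardiac counterparts, the second skeletal muscle list, the sites at neighbouring genes, the counts per gene and, for list length and overlap, the pileup ratio were added after the data were seen.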

Additional observations from a re-analysis of the deposited data

How the results depend on the processing

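The lowest called peaks of the 4 lists had 21 to 26 fragments, and several shares changed with the list length or the libraries used. Leaving out each library in turn, the difference in sites called per library ran between -52.5 and -33.0 and the pileup ratio between 0.581 and 0.696. The control-only share ran between 21.5% and 37.3%, the share in all 4 between 48.5% and 78.5%, and the TBX5 KO-only count between 2 and 7. In the same way the control-only share ran between 56.9% and 67.6% at the cardiac counterparts and between 30.9% and 45.9% at the other skeletal muscle genes. With 3 libraries a pattern asks for fewer calls, so its count changes by construction.

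With groups exchanged, as the genotype labels state, the difference was 37.0, the pileup ratio 1.63, the control-only share 1.52%, the share in all 4 95.5% and the TBX5 KO-only count 16, with control-only shares of 1.22% at the cardiac counterparts and 0.0% at the other skeletal muscle genes. At equal length the control-only share was 8.22%, that in all 4 79.5%, and that of the cardiac counterparts 37.4%. At −log10 q of at least 3 or 5 the TBX5 KO-only count was 0, and at 5 the control-only share of the other skeletal muscle genes was 32.5%. The TBX5 KO-only count was 2 with 50% overlap, 10 by summits and 3 with 50 kb. In the gene body alone the share in all 4 was 55.6%. Sites at a neighbouring gene numbered 11 in the gene body alone, 14 with 2.5 kb, 90 with 50 kb and 7 by the nearest gene end, and with 50 kb the cardiac counterparts had 44.8%. Where no construction is named, the cause was not tested. The number of skeletal muscle genes with a site in both control libraries was 20 to 34 under all 14 alternatives.

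Paired by replicate number, as a replicate block, the difference was -37.0 (exact permutation of signs, p = 0.5, the smallest for 2 pairs), the pileup ratio 0.613 and the share of control sites not called in the TBX5 KO library of the same number 38.1%, with 43.4% and 32.7% in the pairs and 52.0% and 41.7% over all gene sites. The last counts sites of 1 control library, a different base from the 17.4% above. The numbers are not known to mark shared animals. Of 980 counts per gene, 770 stayed within 1.5 times.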

Other observations

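CHD4 sites at marker genes of other atrial cells gave the following counts. At the 5 atrial cardiomyocyte markers (Myl7, Sln, Nppa, Myl4 and Bmp10) 16 of 31 sites in both control libraries were control-only (51.6%) and 10 (32.3%) were called in all 4, beside 24.3% and 57.2% over all gene sites. The markers differed: 9 of 11 sites at Bmp10, 6 of 14 at Myl4 and 1 of 4 at Myl7 were control-only. Sln and Nppa, with 1 site each, had 0. At the 4 fibroblast markers (Col1a1, Col1a2, Pdgfra and Dcn) 3 of 29 were control-only (10.3%) and 15 (51.7%) were called in all 4. At the 4 endothelial markers (Pecam1, Cdh5, Tek and Kdr) 8 of 48 were control-only (16.7%) and 29 (60.4%) were called in all 4, and at the 4 smooth muscle markers (Myh11, Acta2, Cnn1 and Tagln) 1 of 11 was (9.09%) and 8 (72.7%) were. At the 35 skeletal muscle genes the counts were 16 (17.4%) and 63 (68.5%) of 92. The part of cells other than cardiomyocytes in these counts was not tested.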
